A study of Mus musculus with 32 samples.

Results

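The steady-state levels of 10 transcription factors of the lung epithelium, Nkx2-1, Foxa1, Foxa2, Foxp2, Gata6, Cebpa, Elf3, Elf5, Sox2 and Sox9, were followed in whole lungs of newborn mice. The members were the probes whose gene name was one of these 10 symbols: 13 of the 55681 probes of the array, for 10 of 22594 named genes. The data were 32 samples of perfused lung from C57Bl/6J mouse pups in 8 groups of 4, 1 sample per array, covering postnatal day (P)5 and P14, 21% O2 (normoxia) and 85% O2 from P1 (hyperoxia, a model of bronchopulmonary dysplasia in which alveolar formation is arrested), and a scrambled antimiR (SCR) or an antimiR against miR-34a (A34a; antagomiR in the labels). Every mouse therefore received an injected oligonucleotide, and no uninjected group was compared here. The study asked whether blocking miR-34a changes the response of the growing lung to oxygen, and here that question was put to the genes that specify and maintain the epithelium.

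Nkx2-1 marks the lung domain of the foregut and, with Foxa1, Foxa2, Gata6 and Cebpa, drives the surfactant and secretory genes of alveolar type II and airway cells. Foxp2 is a transcriptional repressor expressed in distal epithelium. Elf3 and Elf5 belong to the epithelial ETS factors, Elf3 being known in airway epithelium and its repair and Elf5 in the distal lung. Sox9 marks the distal tips of the branching lung, and is also the main factor of cartilage, while Sox2 marks the proximal airway and also oesophagus and glia. Each sample was whole-lung tissue, so that fewer cells of a type and less RNA per cell cannot be told apart in any value below. Levels are given as log2 signal relative to the array's own 75th percentile, which is 0 on this scale, and levels of different probes were not set against each other.

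The sequences shown are the microRNA that was blocked and the starts of 3 genes picked here for their response: Foxa2, called higher in all 4 oxygen comparisons, its relative Foxa1, which went the other way at P14, and Elf3, which at P14 rose most after Sox9. The mature microRNA (RefSeq, GRCm38.p6, chr4:150068473-150068494, + strand) is shown 5′ to 3′ with its seed, bases 2 to 8, in capitals.
mmu-miR-34a-5p: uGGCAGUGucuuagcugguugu
The 250 bases before a RefSeq start site were held for 7 of the 10 genes, as 10 windows (GRCm38.p6). Those of Foxa1 (chr12:57546112-57546361, - strand), Elf3 (chr1:135258473-135258722, - strand) and the second of 3 Foxa2 starts (chr2:148045949-148046198, - strand) are shown on the gene's own strand, with capitals for matches to 4 short motifs searched on both strands: TGTTTNC for FOX factors, ACAAAG for SOX factors, CAAGTG for NKX2 factors and GGAAGT for ETS factors.
Foxa1: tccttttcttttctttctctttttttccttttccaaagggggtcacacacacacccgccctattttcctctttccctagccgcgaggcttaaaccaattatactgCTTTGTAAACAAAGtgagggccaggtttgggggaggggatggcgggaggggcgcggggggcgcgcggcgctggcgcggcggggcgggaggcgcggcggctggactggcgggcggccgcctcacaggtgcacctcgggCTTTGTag
Elf3: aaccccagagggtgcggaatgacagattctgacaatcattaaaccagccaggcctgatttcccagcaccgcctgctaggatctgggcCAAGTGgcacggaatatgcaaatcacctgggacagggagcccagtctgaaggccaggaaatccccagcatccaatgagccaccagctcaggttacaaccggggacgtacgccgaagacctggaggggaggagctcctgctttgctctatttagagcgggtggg
Foxa2: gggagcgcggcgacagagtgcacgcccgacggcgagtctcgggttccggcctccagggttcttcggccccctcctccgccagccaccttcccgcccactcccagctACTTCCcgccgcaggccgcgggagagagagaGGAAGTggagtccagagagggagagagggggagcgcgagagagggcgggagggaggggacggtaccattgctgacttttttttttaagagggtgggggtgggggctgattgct
The Foxa1 window held 1 FOX match, 141 to 135 bases before the start, overlapping a SOX match at either end, and 1 more SOX match 8 to 3 bases before the start. The Elf3 window held 1 NKX2 match, and the Foxa2 window 2 ETS matches. That Foxa2 window is shown because it held the most matches of the 3: the first held none and the last 1 SOX match. The Sox2 window held 1 SOX match, and 5 of the 10 windows held none of the motifs. Such matches are common: 17.8% of 32851 promoter windows of the same length held the FOX motif, 16.5% the SOX motif, 11.6% the NKX2 motif and 19.7% the ETS motif. They describe the letters and name no bound site.

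Main probes, the brightest of each gene, were well above background on all 32 arrays for all 10 genes. Foxa2 had 2 probes and Foxp2 3, of which 1 was above background on 6 of 32 arrays and was not tested. In the mm9 annotation of the array the probes of responding genes lay, among others, at chr11:112648809-112648868 (Sox9, + strand), chr1:137150328-137150387 (Elf3, - strand), chr2:147868669-147868728 (Foxa2, - strand) and chr12:58641764-58641823 (Foxa1, - strand), and that of Sox2 at chr3:34550773-34550832 (+ strand), and no transcript part was given for them.

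Each of the 4 slides held 1 age at 1 oxygen level, so that slide cannot be told apart from oxygen or from age. On each slide the SCR arrays filled 1 row and the A34a arrays the other. By the labels the agent used to kill the pups also differed between the ages. No source used here states that the 4 samples of a group were separate animals, so that p-values measure the spread between these samples, which may be technical. A pair of arrays stood apart from their groups in several tissue lists. In P5, 21% O2, SCR replicate 4 the summed log2 level of 8 skeletal muscle genes was 6.96 against 1.87 to 3.41 in the other arrays of the group, and that of 8 oesophagus genes 4.10 against 0.66 to 0.83; the squamous keratins Krt5 and Krt4 stood at 2.88 and 1.51 there, against at most -4.43 and -5.56. In P14, 85% O2, A34a replicate 4 the type I cell genes summed to 7.51 against 8.0 to 8.25, the adipocyte genes to 2.24 against -1.08 to -0.31, and 4 airway genes were far above the other arrays of the group, with Scgb3a1, a secretoglobin of the larger airways, at 4.86 against -0.77 to -0.13. The first of these arrays was the highest of its group in Elf3, Sox2 and Gata6, and the lowest in Nkx2-1 and Sox9. The second was the highest of its group in Foxa1, Cebpa, Elf5, Sox2 and Sox9, and the lowest in Nkx2-1, Foxa2, Foxp2 and Gata6. Where a call changed without either array, both values are given. Other arrays also stood out in some lists. In P5, 85% O2, A34a replicate 3 the surfactant and type II cell genes summed to 10.14 against 9.71 to 9.855. Its red blood cell genes summed to 9.16 against 8.03 to 8.40, and its glial genes to 7.80 against 7.06 to 7.28. That array was the highest of its group in Nkx2-1, Foxa2 and Elf3, and the lowest in Foxa1, Gata6, Elf5 and Sox9. In P14, 85% O2, A34a replicate 2 the pan-epithelial genes summed to 8.02 against 7.13 to 7.18 and the oesophagus genes to 1.82 against 1.01 to 1.19, and that array was the highest of its group in Elf3 and the lowest in Foxa1, Elf5 and Sox2. In P14, 21% O2, SCR replicate 1 the adipocyte genes summed to 5.84 against 2.61 to 3.1, and that array was the highest of its group in Cebpa and Sox2.

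**Figure D1:**
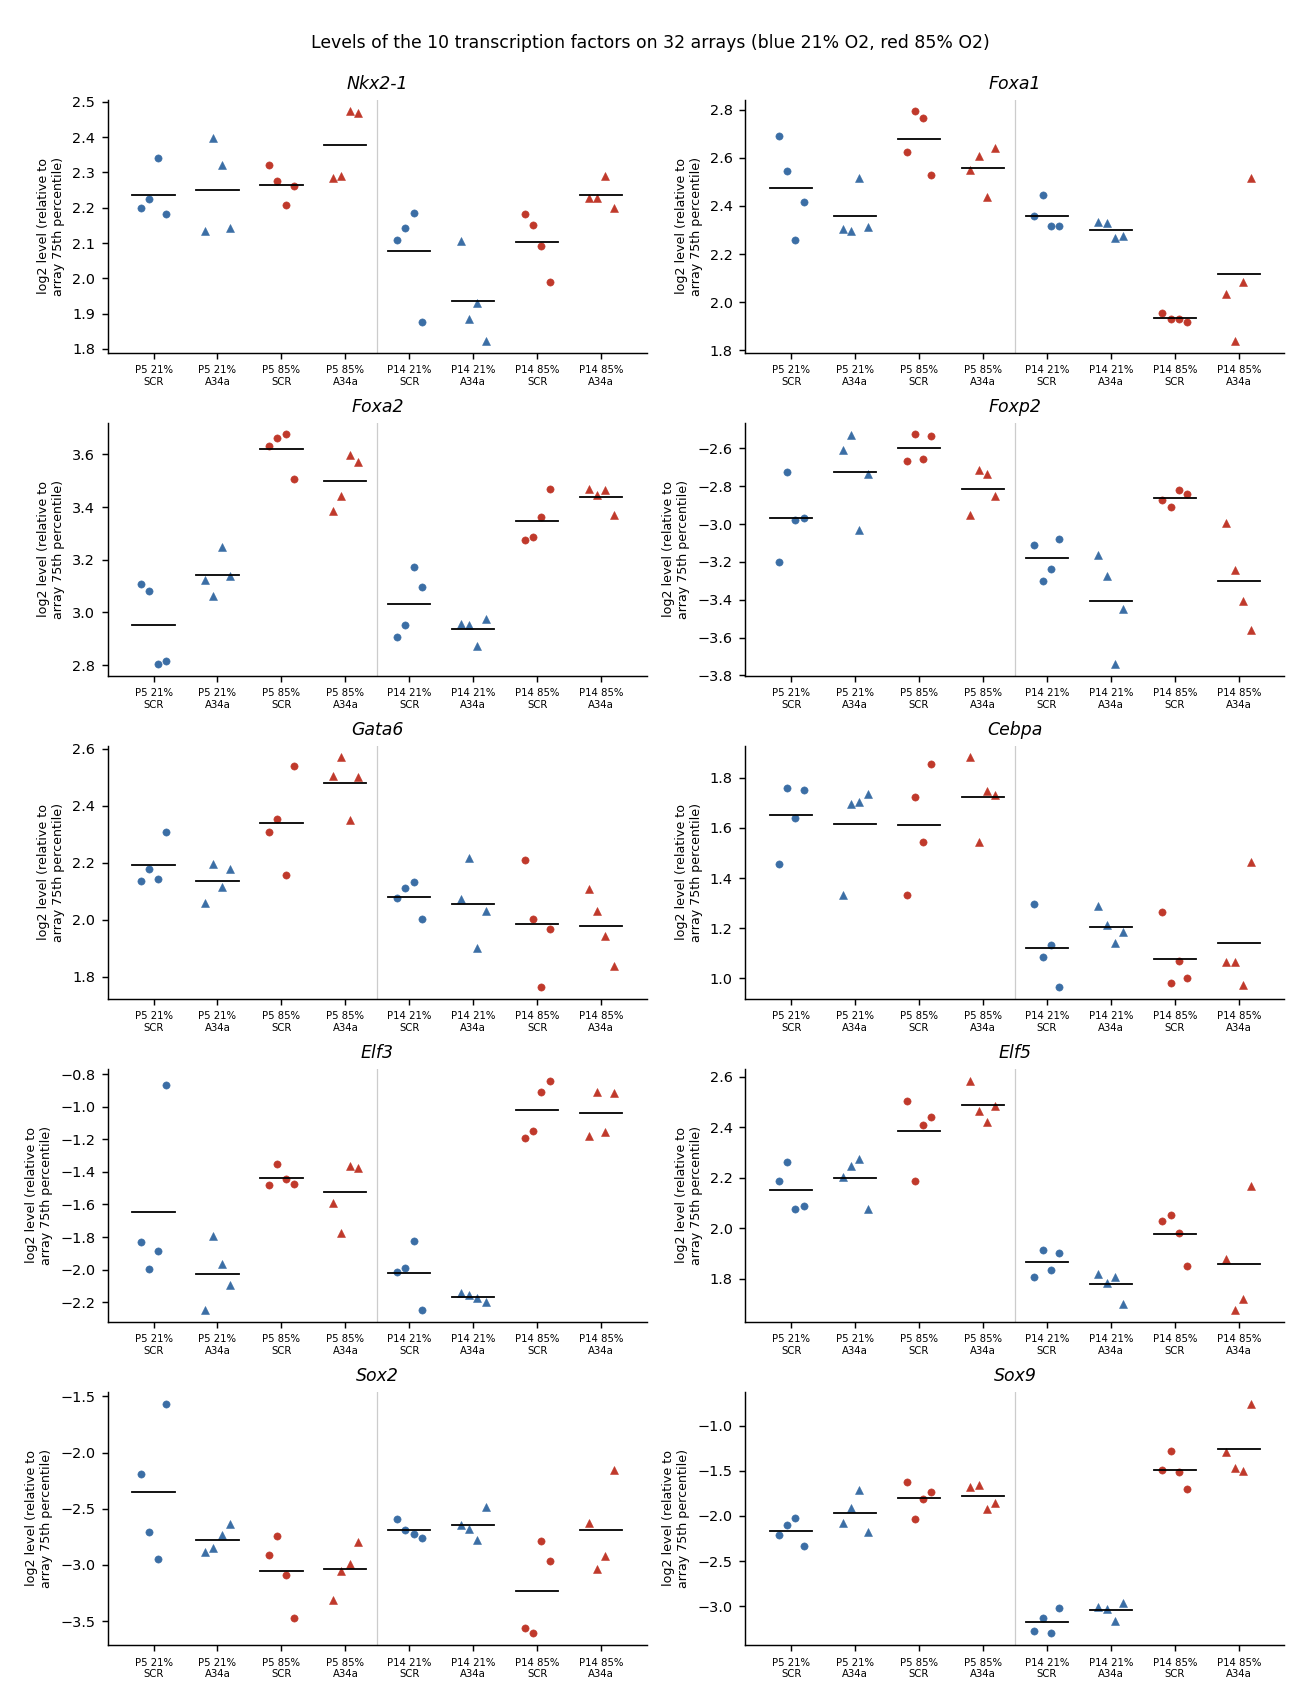
Level of each of the 10 transcription factors (log2 relative to the array's 75th percentile, own axis per gene) on each of the 32 arrays, by age, oxygen and antimiR; points are arrays, circles SCR, triangles A34a, blue 21% O2, red 85% O2, bars group means. Main probes are drawn. Sox9 falls below all other arrays in the 8 P14, 21% O2 arrays, from -3.30 to -2.96, and Foxa2 lies higher in all 16 arrays at 85% O2, from 3.27 to 3.68, than in any at 21% O2, a split that its second probe did not show.

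Sox9 had the widest range of the 10 genes over the 8 groups, 3.79-fold between the highest and the lowest group mean, and Nkx2-1 the narrowest, 1.36-fold. In pups at P14 in 21% O2 with SCR, Sox9 stood at -3.27, -3.13, -3.30 and -3.02, and in 85% O2 with SCR at -1.49, -1.28, -1.52 and -1.71. The groups were far apart, and the difference was 1.68 ± 0.14 (SE) on the log2 scale, a 3.21-fold higher level in 85% O2 (limma, adjusted p = 5.02e-07). With A34a the levels at 21% O2 were -3.00, -3.03, -3.16 and -2.96, and at 85% O2 -1.29, -1.47, -1.51 and -0.76, the last in the array with high airway genes. The difference was 1.78 ± 0.14 (3.44-fold, adjusted p = 2.86e-07), and between 1.62 and 1.87 when single arrays were left out. At P5 the difference was smaller: 0.36 ± 0.11 with SCR (1.29-fold, adjusted p = 0.0181), with 1 array at 85% O2 inside the range of the 21% O2 arrays, and 0.19 ± 0.11 with A34a (adjusted p = 0.182), the latter 0.31 and called with the authors' log2 table (adjusted p = 0.0446). Without the P5, 21% O2, SCR array with muscle and oesophagus genes the SCR value was 0.31 (adjusted p = 0.056), and without replicate 1 at 85% O2 it was 0.30 (adjusted p = 0.0505).

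The cartilage genes, which Sox9 drives in the airway wall, were counted beside it. Of 6 tested at P14 with SCR, 1 rose with oxygen and 2 fell, a called share below the 60.9% of all probes. Hapln1, a link protein of cartilage matrix, rose 6.35-fold (adjusted p = 9.56e-08), Col2a1, the main cartilage collagen, fell by 3.30 on the log2 scale (adjusted p = 8e-07), and Acan, the large cartilage proteoglycan, fell by 0.97 (adjusted p = 0.0067). At P5, Hapln1 rose 2.41-fold and Col2a1 fell by 2.32, with 3 further genes not called. The summed level of the list ran from -0.50 to 0.03 in the P14, 21% O2, SCR arrays and from 0.50 to 0.94 in the P14, 85% O2, SCR arrays. The sum adds unlogged signal, so that bright genes weigh most, and the median difference of the 6 tested genes was -0.426. Of the 8 genes, Matn3 was above background on 4 arrays and Matn1 on 6, while Col2a1 was on all 32. The part of cartilage in the Sox9 values was not tested.

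Elf3 rose with oxygen at P14 under both antimiRs. With SCR it stood at -2.01, -1.99, -1.83 and -2.25 in 21% O2 and at -1.19, -1.15, -0.91 and -0.84 in 85% O2. The difference was 1.00 ± 0.10, a 2-fold higher level (adjusted p = 2.8e-06). With A34a the levels were -2.14, -2.16, -2.17 and -2.20 against -1.18, -0.91, -1.15 and -0.91, a difference of 1.13 ± 0.10 (2.19-fold, adjusted p = 8.63e-07). At P5 with SCR 3 of the 4 arrays at 21% O2 lay between -1.99 and -1.83, and replicate 4, the array with muscle and oesophagus genes, at -0.87, above all 4 arrays at 85% O2 (-1.48, -1.35, -1.44 and -1.47). With that array the difference was 0.21 ± 0.20 (adjusted p = 0.413), and without it 0.47 (adjusted p = 0.00563). The A34a arrays of P5 did not overlap between the oxygen levels (-2.25 to -1.79 against -1.77 to -1.37), and the difference was 0.50 ± 0.20 (adjusted p = 0.0499), a call kept in 4 of the 16 fits that left out 1 array.

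Foxa2 was the gene of the 10 with a called rise in all 4 oxygen comparisons. At P5 with SCR it stood at 3.11, 3.08, 2.80 and 2.82 in 21% O2 and at 3.63, 3.66, 3.68 and 3.51 in 85% O2. The difference was 0.67 ± 0.08 (1.59-fold, adjusted p = 2.18e-05), and 0.36 ± 0.08 with A34a (1.28-fold, adjusted p = 0.0028). At P14 the arrays at 21% O2 with SCR stood at 2.91, 2.95, 3.17 and 3.1 and those at 85% O2 at 3.27, 3.29, 3.36 and 3.47. The difference was 0.32 ± 0.07 with SCR (adjusted p = 0.00145) and 0.50 ± 0.07 with A34a (adjusted p = 3.15e-05). The second Foxa2 probe gave 0.60, 0.12, 0.33 and 0.46 for the same comparisons, the A34a value at P5 not being called (adjusted p = 0.297). With quantile normalization the P14 value with SCR was 0.18 (adjusted p = 0.0524).

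Foxa1, the close relative of Foxa2, went the other way at P14. With SCR it stood at 2.36, 2.45, 2.31 and 2.32 in 21% O2 and at 1.96, 1.93, 1.93 and 1.92 in 85% O2. It fell by 0.42 ± 0.11 on the log2 scale (1.34-fold lower, adjusted p = 0.00346), and the 4 arrays at 85% O2 lay within 0.04 of each other. With A34a 3 arrays at 85% O2 stood at 2.03, 1.84 and 2.08 and replicate 4, the array with high airway genes, at 2.52, above the 21% O2 arrays (2.27 to 2.33). The A34a difference was -0.18 ± 0.11 (adjusted p = 0.145) with that array and -0.32 without it (adjusted p = 0.00117). With all arrays and quantile normalization it was -0.31 (adjusted p = 0.0218). At P5 it was 0.20 ± 0.09 under either antimiR (adjusted p = 0.0931 with SCR and 0.0898 with A34a), and the SCR value was 0.27 without 21% O2 replicate 1 (adjusted p = 0.0303). With array weights both were called (0.23, adjusted p = 0.0414 and 0.24, adjusted p = 0.0389).

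Sox2 was lower with oxygen in the SCR pups at both ages, on arrays that also differed in airway genes. At P5 with SCR it stood at -2.19, -2.71, -2.95 and -1.56 in 21% O2 and at -2.91, -2.75, -3.09 and -3.48 in 85% O2, and the groups overlapped. It fell by 0.70 ± 0.24 (1.63-fold lower, adjusted p = 0.0288), and by 0.44 without the array with oesophagus genes (adjusted p = 0.0803). The call was kept in 12 of 16 fits that left out 1 array and under 5 of 10 other ways of processing, with adjusted p up to 0.186. At P14 with SCR it stood at -2.59, -2.69, -2.73 and -2.76 against -3.56, -3.61, -2.79 and -2.96, groups that did not overlap. It fell by 0.54 ± 0.20 (adjusted p = 0.0302). The call was lost when 1 of 4 arrays was left out (-0.54 to -0.41, adjusted p up to 0.0984), and under 4 other ways of processing, the value nearest 0 being -0.23 (normexp, adjusted p = 0.242). With A34a the differences were -0.26 ± 0.24 at P5 (adjusted p = 0.388) and -0.04 ± 0.20 at P14 (adjusted p = 0.874).

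Scgb3a1, Bpifa1, Muc5b and Reg3g, genes of the larger conducting airways, fell in the same 2 SCR comparisons, Scgb3a1 by 3.94 at P5 (adjusted p = 0.00452) and by 5.24 at P14 (adjusted p = 0.00046). They belong to a list of 10 airway secretory genes, of which 1 rose at P5 and 3 rose at P14, among them Scgb1a1, the main club cell secretoglobin (0.43, adjusted p = 0.0046). The summed level of the list was higher at 85% O2 at P14 with SCR (9.89 to 10.2) than at 21% O2 (9.75 to 9.79). Scgb3a1 varied widely between arrays of 1 group: at P5 in 21% O2 with SCR it stood at 5.12, 2.25, 0.25 and 4.88, listed by replicate as the Sox2 values were, and with A34a at -2.15, -0.87, -0.58 and -1.20. In 6 of the 8 groups the array highest in Scgb3a1 was also the array highest in Sox2, a count made after the values were seen and given with no share over all probes. The same count was 5 of 8 for Foxa1, 3 for Foxa2 and Sox9, 2 for Foxp2, Cebpa and Elf5, 1 for Elf3, and 0 for Nkx2-1 and Gata6. How much of the Sox2 and Foxa1 differences goes with the amount of large airway in a lung sample was not tested.

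Foxp2 rose with oxygen in SCR pups, by 0.37 ± 0.11 at P5 (1.29-fold, adjusted p = 0.015) and by 0.32 ± 0.13 at P14 (1.25-fold, adjusted p = 0.0426), and its groups did not overlap at either age. The P14 call was lost when 1 of 8 arrays was left out, with adjusted p up to 0.105, and the P5 call without 21% O2 replicate 1 (0.30, adjusted p = 0.0518). With A34a the differences were -0.09 ± 0.11 and 0.11 ± 0.13 (adjusted p = 0.541 and 0.477), but quantile normalization gave 0.66 at P14 with A34a (adjusted p = 0.00346). The second tested Foxp2 probe gave larger values at P14, 0.99 ± 0.22 with SCR (adjusted p = 0.00133) and 0.61 ± 0.22 with A34a (adjusted p = 0.0233), and 0.46 and 0.30 at P5, neither called (adjusted p = 0.177 and 0.385). The probes of this gene thus differed in the size of the change and, at P5 with SCR and at P14 with A34a, in the call.

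Elf5 rose modestly at P5, by 0.23 ± 0.08 with SCR (1.17-fold, adjusted p = 0.0227) and by 0.29 ± 0.08 with A34a (1.22-fold, adjusted p = 0.00626), while the P14 differences were 0.11 ± 0.09 and 0.08 ± 0.09 (adjusted p = 0.307 and 0.451). The SCR call at P5 was lost when 1 of 5 arrays was left out, with adjusted p up to 0.0629, and the value was 0.21 without the array with muscle and oesophagus genes (adjusted p = 0.0581). It was also lost with quantile normalization (adjusted p = 0.0608), the authors' table (0.0522), only the compared groups in the fit (0.0613) and the methods' t-test (0.0897). Gata6 rose with A34a at P5, from 2.06, 2.20, 2.11 and 2.18 to 2.50, 2.57, 2.35 and 2.50 (0.34 ± 0.08, adjusted p = 0.00252). With SCR the Gata6 difference at P5 was 0.15 ± 0.08 (adjusted p = 0.14), and 0.21 without 85% O2 replicate 3 (adjusted p = 0.0458). Nkx2-1 rose with A34a at P14, from 2.11, 1.89, 1.93 and 1.82 to 2.23, 2.23, 2.29 and 2.20 (0.30 ± 0.08, adjusted p = 0.0048), and this call was lost with quantile normalization (0.16, adjusted p = 0.0765). With SCR its difference was 0.03 at either age, with a 95% interval of -0.13 to 0.19 at P5 and -0.15 to 0.20 at P14. Cebpa was not called in any of the 4 oxygen comparisons, its differences lying between -0.06 and 0.11.

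**Figure D2:**
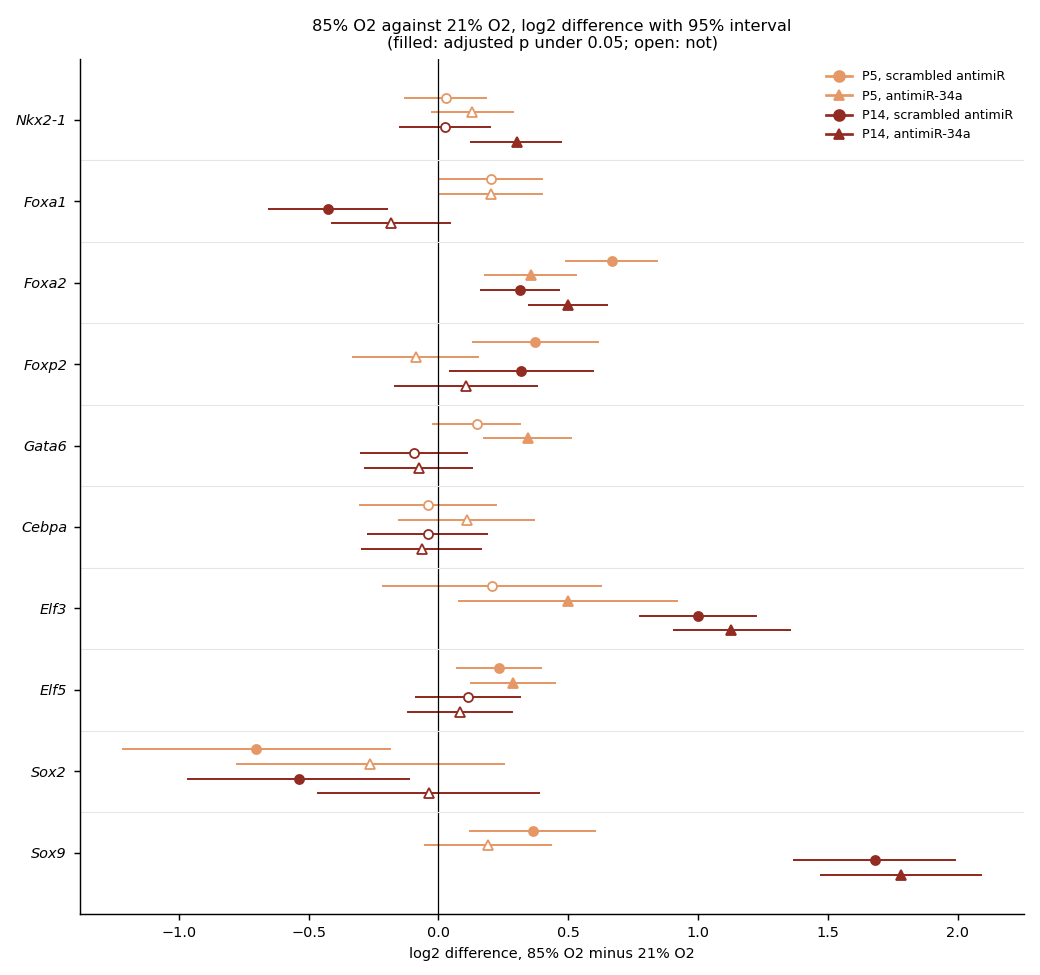
Log2 difference between 85% and 21% O2 (x axis, with 95% interval) for the 10 genes in the 4 comparisons of age and antimiR; filled symbols passed an adjusted p of 0.05. Sox9 and Elf3 at P14 lie between 1.00 and 1.78, and Foxa2 is filled in all 4 comparisons.

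In counts, oxygen changed 5 of the 10 factors at P5 with SCR, 4 higher and 1 lower, where 43.9% of the 35982 probes tested were called (17.4% higher and 26.5% lower). It changed 4 at P5 with A34a, all higher (46.6% of probes, 17.1% higher and 29.5% lower). At P14 it changed 6 with SCR, 4 higher and 2 lower (60.9% of 38455 probes, 28.2% higher and 32.7% lower), and 4 with A34a, all higher (65.5%, 27.6% higher and 37.9% lower). The total shares of called members thus lay near or below the background of these arrays. Without the array with muscle and oesophagus genes the count at P5 with SCR was 3 (Foxa2, Foxp2 and Elf3), and without the array with high airway genes that at P14 with A34a was 5, Foxa1 being added. The median difference of the 10 genes was 0.21 at P5 with SCR, 0.20 at P5 with A34a, 0.07 at P14 with SCR and 0.10 at P14 with A34a, against -0.07, -0.10, -0.07 and -0.12 over all probes tested.

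Between P5 and P14 in 21% O2 with SCR, when the alveoli of the healthy lung form, 3 of the 10 factors fell and none rose (51.4% of 39160 probes called, 27.7% higher and 23.8% lower). Sox9 fell by 1.01 ± 0.13 (2.01-fold lower, adjusted p = 6.75e-07), from -2.21, -2.10, -2.03 and -2.34 to -3.27, -3.13, -3.30 and -3.02. Cebpa, a factor of type II cell maturation that also works in fat and myeloid cells, fell by 0.53 ± 0.12 (adjusted p = 0.00044), from 1.46, 1.76, 1.64 and 1.75 to 1.3, 1.08, 1.13 and 0.96. Elf5 fell by 0.29 ± 0.08 (adjusted p = 0.00538), from 2.19, 2.26, 2.08 and 2.09 to 1.81, 1.91, 1.84 and 1.90. Elf3 gave -0.38 ± 0.16 (adjusted p = 0.0537), called when P14 replicate 3 or P5 replicate 1, 2 or 3 was left out (-0.49 to -0.44), and -0.12 without P5 replicate 4. It was also called with normexp, quantile normalization, the authors' table and the stricter filter on dim probes (adjusted p between 0.0363 and 0.0479). Nkx2-1 gave -0.16 ± 0.07 (adjusted p = 0.0751), called without P14 replicate 3 (-0.20, adjusted p = 0.0446). For Foxp2, the second probe fell by 1.12 ± 0.25 (adjusted p = 0.00066) where the main probe gave -0.21 (adjusted p = 0.148).

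In 85% O2 with SCR, 6 factors changed between P5 and P14, 1 higher and 5 lower (42.1% of probes, 25.6% higher and 16.5% lower). Foxa1 fell by 0.74 ± 0.10 (1.67-fold lower, adjusted p = 1.61e-06), from 2.62, 2.79, 2.77 and 2.53 to 1.96, 1.93, 1.93 and 1.92. Cebpa fell by 0.53 ± 0.12, Elf5 by 0.41 ± 0.08, Gata6 by 0.35 ± 0.09 and Foxa2 by 0.27 ± 0.07 (adjusted p between 0.000309 and 0.00408). Elf3 rose by 0.42 ± 0.16 (1.33-fold, adjusted p = 0.0403), and its call was lost with quantile normalization (0.35, adjusted p = 0.106) and when 1 of 6 arrays was left out (adjusted p up to 0.115). Gata6 was not called by the methods' t-test (adjusted p = 0.0783). Nkx2-1 gave -0.16 ± 0.07 (adjusted p = 0.0829) and was called with quantile normalization (-0.23, adjusted p = 0.0124), normexp (-0.23, adjusted p = 0.0228) and the authors' table (-0.21, adjusted p = 0.0192). Foxp2 gave -0.27 ± 0.12 (adjusted p = 0.082) and was called under 3 alternatives (adjusted p between 0.0145 and 0.0216). Sox9, which fell in 21% O2, stood 0.31 ± 0.13 higher at P14 in 85% O2 (adjusted p = 0.063), a value called when the P14, 85% O2, A34a array with high airway genes was left out of the shared fit (adjusted p = 0.0221) and without P14 replicate 4 (0.38) or P5 replicate 1 (0.37). With all arrays it was called with normexp (0.295, adjusted p = 0.0288) and with array weights (0.408, adjusted p = 0.00629).

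**Figure D3:**
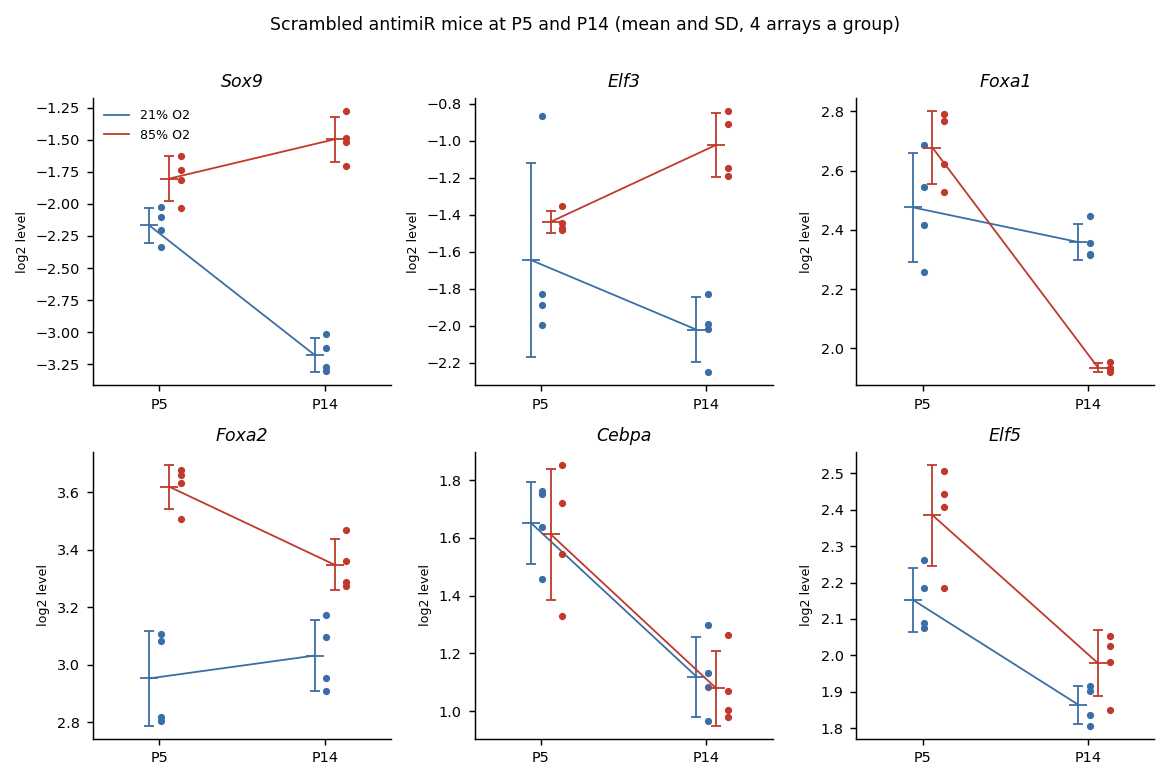
Levels of 6 of the factors at P5 and P14 in the SCR groups (y axis log2 relative to the array's 75th percentile, own axis per gene; points arrays, bars mean ± SD, n = 4; blue 21% O2, red 85% O2). The oxygen lines of Sox9 and Elf3 spread between the ages, those of Foxa1 cross, and the lines of Cebpa lie together, with falls of 0.53 at either oxygen level.

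The test of the difference between these oxygen responses, P14 less P5 with SCR, called 4 of the 10 genes, 2 in each direction (40.8% of probes, 22.8% higher and 18% lower). The oxygen difference was larger at P14 by 1.32 ± 0.19 for Sox9 (adjusted p = 6.14e-06) and by 0.79 ± 0.23 for Elf3 (adjusted p = 0.00736). The Elf3 value was 0.53 without the P5 array with oesophagus genes, with adjusted p at most 0.0189 whichever array was left out, and it was not called by the methods' t-test (adjusted p = 0.106). The difference was lower at P14 by -0.63 ± 0.14 for Foxa1 (adjusted p = 0.000994), whose sign turned, and by -0.35 ± 0.10 for Foxa2 (adjusted p = 0.00871), which rose at both ages. The second Foxa2 probe gave -0.27 (adjusted p = 0.0676). Nkx2-1 and Cebpa gave 0.00, with 95% intervals of -0.22 to 0.21 and of -0.34 to 0.34. Gata6 was called without P14, 85% O2 replicate 1 (-0.32, adjusted p = 0.0326).

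Over all 32 arrays, the main Foxa2 probe was higher on every array at 85% O2 than on any at 21% O2, a split that 3.57% of probes showed. The second Foxa2 probe did not split this way. It reached 1.33 in P5, 21% O2, A34a and went down to 1.05 in P14, 85% O2, A34a. Sox9 was lower on every P14, 21% O2 array than on all others, as 5.98% of probes were. None of the 10 was higher on every P5 array than on any P14 array (1.43% of probes) or highest on the 8 arrays of P14 at 85% O2 (4.42%). With the pair of arrays that stood apart left out, Elf3 joined Foxa2 in the oxygen split (4.03% of probes) and was highest on the P14, 85% O2 arrays (5.22%), Cebpa and Elf5 split by age (1.56%), and Sox9 kept its split (6.84%). These splits were counted after the values were seen. When the 8 groups of each gene were put in order of their means, neighbouring groups overlapped except at 1 step in each of 6 genes, 8.57% of the 70 steps against 9.27% over all probes tested. These steps lay between the lowest 85% O2 and the highest 21% O2 group for Foxa2, between the lowest P5 and the highest P14 group for Cebpa and Elf5, below the P14, 85% O2 groups for Elf3, above the P14, 21% O2 groups for Sox9, and between the A34a and SCR groups of P14 at 85% O2 for Nkx2-1.

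AntimiR-34a against SCR gave no call among the 10 factors in any of the 4 settings (limma). In 85% O2 this was so at P5, where 0.0639% of probes were called, and at P14, where 2.67% were. In 21% O2 it was so at P5, with 0.136% of probes called, and at P14, with 0% called. The methods' t-test also called none of the 10, while array weights in limma called Nkx2-1 at P14 in 21% O2 (-0.22, adjusted p = 0.00664). At an unadjusted p under 0.05 the counts of factors were 0 at P5 in 85% O2 (13.1% of probes), 2 at P5 in 21% O2 (17.6%), 2 at P14 in 85% O2 (16.5%) and 0 at P14 in 21% O2 (10.5%). These were Foxa2 (0.19 ± 0.08, adjusted p = 0.256) and Foxp2 (0.24 ± 0.11, adjusted p = 0.28) at P5, and Foxp2 and Sox2 at P14.

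Foxp2 at P14 in 85% O2 came nearest to a call. Its SCR arrays stood at -2.87, -2.91, -2.82 and -2.84 and its A34a arrays at -3.00, -3.24, -3.41 and -3.56. The groups did not overlap, and the difference was -0.44 ± 0.13 (adjusted p = 0.0884). Without A34a replicate 1 it fell by 0.54 (adjusted p = 0.0401), and the second Foxp2 probe gave -0.19 ± 0.22 (adjusted p = 0.725). Sox2 in the same comparison gave 0.54 ± 0.20 (adjusted p = 0.175), its highest array being the one with high airway genes, and 0.37 without that array (adjusted p = 0.38). For the factors with the largest oxygen responses, at P14 in 85% O2 the A34a difference was -0.02 for Elf3, with a 95% interval of -0.24 to 0.21, and 0.24 for Sox9, with an interval of -0.07 to 0.55. Without the array with high airway genes the Sox9 value was 0.07 (adjusted p = 0.81). The test of the oxygen response between the antimiRs called none of the 10, with 2 at an unadjusted p under 0.05 at P5 (0.0556% of probes called, 10.8% unadjusted) and 1 at P14 (0.0884%, 15% unadjusted). These were Foxa2 (-0.31 ± 0.12, adjusted p = 0.364) and Foxp2 (-0.46 ± 0.16, adjusted p = 0.33) at P5, and Nkx2-1 (0.27 ± 0.11, adjusted p = 0.294) at P14, the last called with array weights (0.34, adjusted p = 0.0233).

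**Figure D4:**
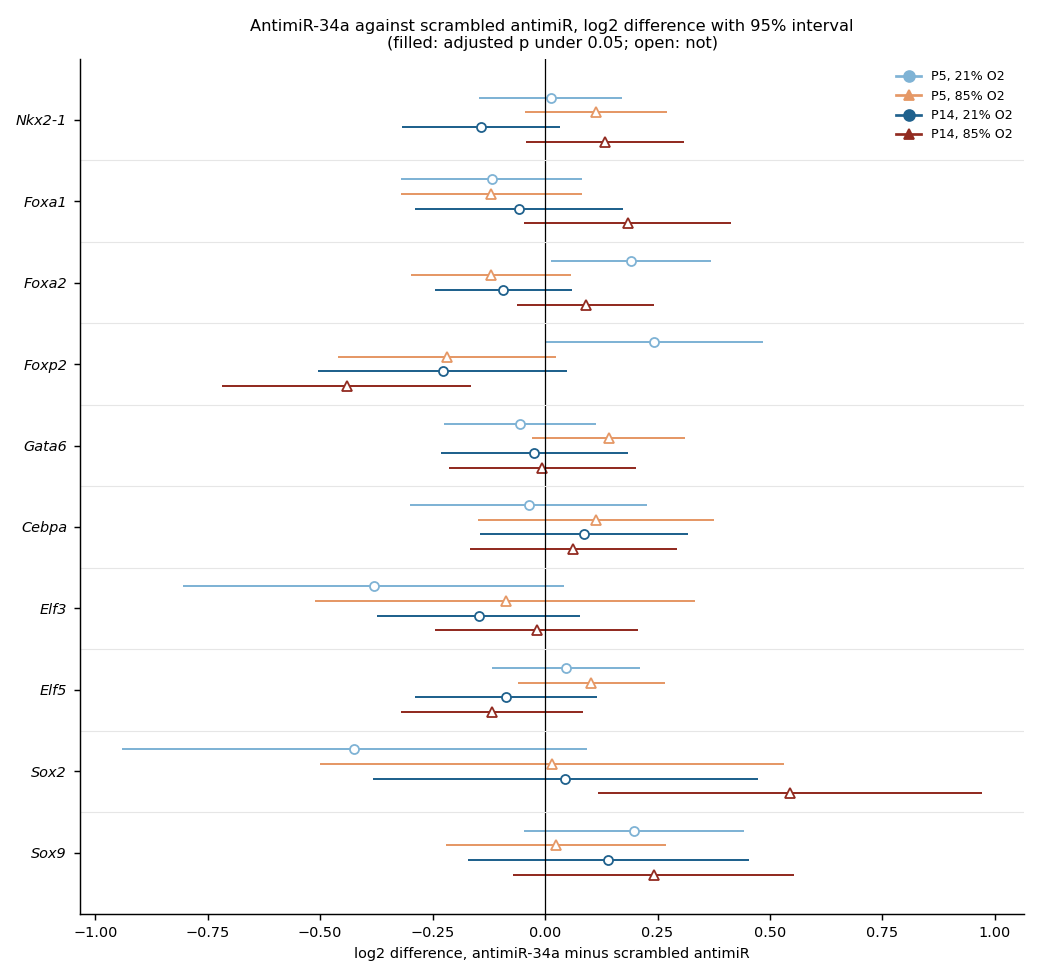
Log2 difference between antimiR-34a and scrambled antimiR (x axis, with 95% interval) for the 10 genes at each age and oxygen level; open symbols did not pass an adjusted p of 0.05. All symbols are open, the farthest from 0 being Sox2 (0.54) and Foxp2 (-0.44) at P14 in 85% O2.

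The factors were also set against other lung epithelial transcription factors, a list of 20 of which 19 were tested. With SCR at P5, 7 of these rose with oxygen and 4 fell, and at P14 9 rose and 3 fell, the medians being 0.06 and 0.29 against -0.07 over all probes at either age. The P5 count, 11 of 19, lay above the 43.9% of all probes called, and the P14 count, 12 of 19, near the 60.9%. Etv4, an ETS factor downstream of FGF signalling at the distal tips where Sox9 also acts, rose 4.17-fold at P14 (adjusted p = 9.69e-09) and fell by 1.72 between P5 and P14 in 21% O2 (adjusted p = 1.26e-10). Grhl1, a grainyhead factor of epithelial barriers, rose 2.25-fold, Cebpd, an inducible relative of Cebpa, 2.16-fold and Irx1, an Iroquois factor, 1.96-fold at P14. Irx1 was the 1 factor of this list called between antimiRs, lower with A34a at P14 in 85% O2 (-0.47 ± 0.10, adjusted p = 0.0291).

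The epithelial gene lists were counted against 43.9% of all probes called at P5 and 60.9% at P14. Of 12 pan-epithelial genes, 11 rose with oxygen at P5 and 8 at P14 with SCR, and none fell (medians 0.51 and 0.73). Cldn4, a tight junction protein, rose 4.92-fold at P14, Cldn7 2.24-fold, the keratin Krt18 1.99-fold and the adhesion molecule Epcam 1.93-fold. Of 10 type I cell genes, 8 rose and 1 fell at P5, and 4 rose and 1 fell at P14, the latter below the share of all probes, with the water channel Aqp5 at 1.80-fold and 1.75-fold. Of 12 surfactant and type II cell genes, 3 rose and 1 fell at P5, and 4 rose and 7 fell at P14 (median -0.35), the P5 count lying below the share of all probes. At P14 the cathepsin Ctsh rose 2.03-fold and the surfactant protein gene Sftpd 1.64-fold, while Cd36 fell by 1.28 and Sftpa1 by 0.88. Of 10 airway secretory cell genes, 1 rose and 4 fell at P5, and 3 rose and 5 fell at P14, the falls including Bpifa1, whose direction was set by the filter.

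**Figure D5:**
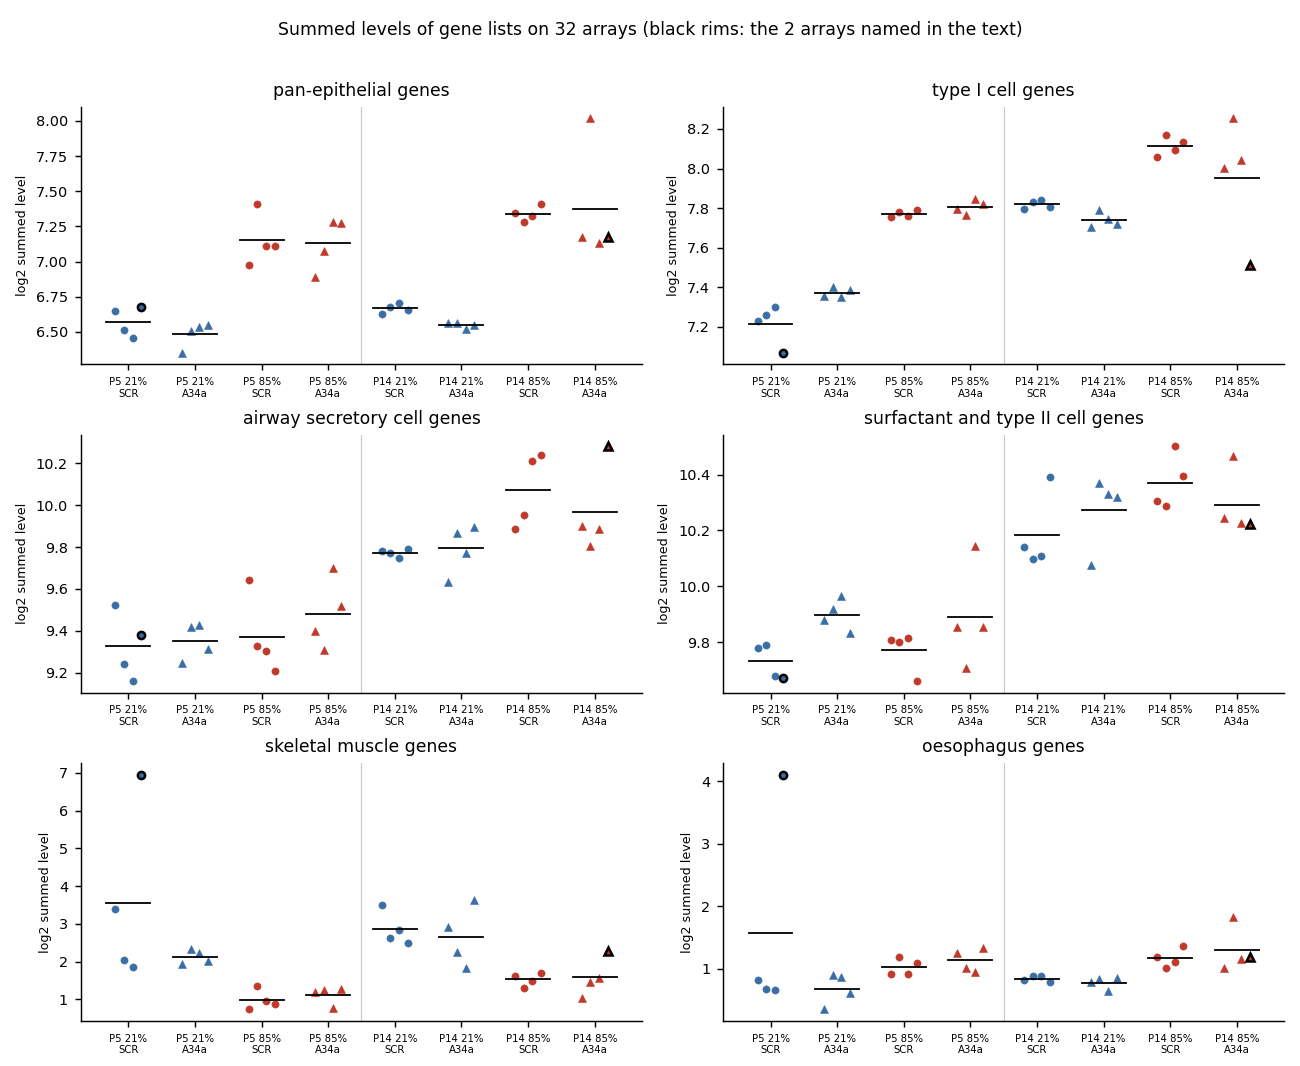
Log2 of the summed level of 6 gene lists on each of the 32 arrays, by group (circles SCR, triangles A34a, blue 21% O2, red 85% O2, bars group means); black rims mark the pair of arrays that stood apart. Muscle (6.96) and oesophagus (4.10) genes are high in 1 P5, 21% O2, SCR array, and type I genes (7.51) low in 1 P14, 85% O2, A34a array.

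Lists of other cells and tissues were counted in the same way for oxygen in the SCR pups at P14, where 60.9% of all probes were called. Of 8 endothelial genes 3 were higher and 2 lower, of 8 fibroblast genes 5 lower, of 7 macrophage genes 4 higher and 2 lower, of 7 skeletal muscle genes 4 lower, of 5 oesophagus genes 1 higher and 2 lower, of 7 glial genes 3 lower, and of 8 red blood cell genes 5 lower. Adipocyte and thymus genes were not counted, since several were above background on all 4 arrays at 21% O2 and on none at 85% O2, so that their direction was set by passing the filter. The called shares of the endothelial, fibroblast, skeletal muscle, oesophagus and red blood cell lists lay near that of all probes. Thyroid matters for Nkx2-1, which thyroid cells also express: within the list Tg, Dio1 and Slc26a4 were above background on all 32 arrays, and Tshr, Slc5a5 and Pax8 on 5, 7 and 1 of them. Of 5 thyroid genes tested, 1 was higher and 3 lower. Those besides Tg, Dio1 and Slc26a4 passed the filter only through 21% O2 arrays. The adipocyte list, of a cell type that also expresses Cebpa, ran from 2.61 to 5.84 in the P14, 21% O2, SCR arrays and from -0.92 to -0.55 at 85% O2, and the Cebpa difference in this comparison was -0.04 (95% interval -0.27 to 0.19). The part of these tissues in the values of the 10 genes was not tested.

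Over the 8 group means of 17878 genes, each centred on its own mean, the genes nearest in pattern to Sox9 were Atp13a3 and 2310014L17Rik, with root mean square differences of 0.118 and 0.12 on the log2 scale. Nearest to Elf3 were Ggt6 (0.075) and Nup50 (0.082), to Foxa2 Ifnlr1 (0.047) and Man2a1 (0.048), and to Foxa1 Dennd2c (0.042) and Cep78 (0.054). Nearest to Nkx2-1 were Il6ra and Vrk3, to Foxp2 Pim3 and Tfcp2l1, to Gata6 Neu2 and Gkn3, to Cebpa Naa40 and Morc4, to Elf5 Gm5458 and Wdr45, and to Sox2 Insrr and Lrrc6, at 0.033 to 0.103. Among the 10 genes themselves the closest pair was Gata6 and Elf5, at 0.117, and Sox9 was nearest to Elf3, at 0.359.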

How the data were processed

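RNA of 32 lung samples was measured on 1-colour Agilent SurePrint G3 Mouse GE 8x60K arrays. The authors scanned them with Agilent Feature Extraction 10.7.3.1 (submitters' processing notes), and the deposited intensity of each of 62976 spots is background-subtracted and detrended within the array per the file headers, with no scaling between arrays. The authors' deposited log2 table has 1 distribution in all columns, and its normalization is not given in the sources used here. It was an alternative.

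From the intensities, control and outlier spots (0.211%) were dropped, the array's 75th percentile was subtracted on the log2 scale, and repeated spots were averaged. Testing was limited to probes that every array of at least 1 group showed well above background. Differences came from limma 3.58.1 (R 4.3.3) on the 16 arrays of an age, or all 32 for age contrasts, with p-values adjusted by Benjamini-Hochberg across every tested probe, a threshold of 0.05 and errors as SE. The script was tested on simulated data. The methods' t-test (Welch) was an alternative, as were normexp background correction, quantile normalization, other filters, fits on the compared groups alone, a replicate block, array weights, the median over probes, and leaving out each array. The number of arrays limits the precision.

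All 10 members are named throughout. From each list at most 4 called genes with the largest change were named per comparison, and cartilage, airway and thyroid genes beside a member as its markers. The members and lists were chosen with earlier results of these data known. The 30-array splits, the list counts under each alternative and the Scgb3a1 count were added after seeing the data. Replicate numbers were checked as pairs: deviations of same-numbered arrays correlated between -0.354 and 0.499. Differently numbered arrays were not set beside them, so whether the numbers pair the samples is not settled. The replicate block was run as an alternative for this reason. Promoter and microRNA sequences are RefSeq's (GRCm38.p6), while probe positions are mm9.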

Additional observations from a re-analysis of the deposited data

Results flagged for a closer look

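Of 80 sets of 4 arrays (10 genes in 8 groups), 3 held an array whose gap to the nearest other, divided by the whole range, was above the 95% critical value of Dixon's test, which chance alone passes in about 1 in 20 groups. Elf3 in P5, 21% O2, SCR replicate 4 stood at -0.866 against -1.99 to -1.83 in the others, on the array with muscle and oesophagus genes. Foxa1 in P5, 21% O2, A34a replicate 3 stood at 2.514, the other arrays at 2.30 to 2.31. Cebpa in P5, 21% O2, A34a replicate 1 stood at 1.333, the others at 1.70 to 1.73.

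The oxygen response of 4 genes differed between P14 and P5 with SCR by the test of the difference itself, larger at P14 for Sox9 (1.317) and Elf3 (0.793), and smaller or turned for Foxa1 (-0.626) and Foxa2 (-0.351). Age and slide cannot be told apart in these values.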

How the results depend on the processing

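No called difference of a member changed its sign under any alternative that was run. At P5 with SCR the count of 5 factors changed by oxygen was 3 with quantile normalization, 3 with the authors' log2 table, 3 with only the compared groups in the fit and 1 with the methods' t-test, and ran from 3 to 5 when single arrays were left out. Array weights raised it there by adding Foxa1 (0.229, adjusted p = 0.0414). Between P5 and P14 in 21% O2 with SCR the count of 3 was 5 with quantile normalization, and 3 to 5 without single arrays. With array weights, Nkx2-1 was called in place of 0 factors for antimiR-34a at P14 in 21% O2 (1 factor, -0.22, adjusted p = 0.00664) and for the difference of the oxygen effect between antimiRs at P14 (1 factor, 0.34, adjusted p = 0.0233). For antimiR-34a at P14 in 85% O2 the count was 0 to 1 without single arrays. Sox9 and Elf3 at P14 were called under every alternative, Sox9 with SCR at 1.31 to 1.84 and Elf3 at 0.88 to 1.09. Foxa2 at P14 with SCR was 0.16 with the authors' table (adjusted p = 0.0795), where Foxp2 with A34a was called (0.66, adjusted p = 0.00349). The causes were not tested. Normexp moved the median of all probes at P14 with SCR from -0.07 to 0.10, and the share of oxygen calls that were higher from 46.3% to 62.1%. Quantile normalization moved that share at P14 with A34a from 42.1% to 55.1%. With the replicate block, Elf3 at P5 with A34a was 0.50 (adjusted p = 0.0542), leaving 3 factors called there, and no other call of a member changed. Dim probes limit Foxp2, whose dimmest probe was above background on 6 arrays.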
